A study of Mus musculus with 12 samples.

Results

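Desulfobacterota, Deferribacterota and Campylobacterota are 3 of the 84 named phyla in a table of male mouse feces and 3 of the 34 in a table of female mouse feces. They were chosen by name, with their shares of reads in these same tables already known, so every level and difference below is a description and none was tested. Bacteria were profiled by sequencing the V4 region of the 16S rRNA gene from fecal pellets. The 12 groups are the combinations of 2 sexes, a prior feed given for 5 weeks (CD, or HfiD, a feed of high fiber content by the series title), and 0, 4 or 8 weeks of HFD, a high fat feed, after it. All groups sampled at 4 and 8 weeks had received HFD, so there was none without it at those times. The labels give neither the strain, age nor housing of the mice. Each group has 1 value per phylum, the authors' own, with no SD and no n. The spread between animals and the read depth behind a value are therefore unknown. Males and females are in separate tables, so a difference between the sexes cannot be told apart from one in sequencing or processing. Female columns are coded C and T. C was taken for CD and T for HfiD by elimination, and every female feed label below rests on that reading. Library columns, 67 male and 48 female, match no single sample label and were not used, so shares per library, the number of libraries in which a phylum was detected and correlations across libraries are not given.

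The 3 phyla were grouped by name as sulfate reducers and mucus-dwelling phyla. Desulfobacterota hold the sulfate reducers of the colon, such as Desulfovibrio, and Bilophila, which respires taurine released from bile acids; both make hydrogen sulfide. Deferribacterota are represented in the rodent gut mainly by Mucispirillum, a curved bacterium of the mucus layer. Campylobacterota include Helicobacter and Campylobacter, spiral bacteria that swim in mucus and in crypts. The tables end at the phylum, so none of these genera was measured. The male table spells the last phylum Campilobacterota, and it was joined to the female row by that synonym. All values are shares of reads: a lower share of a phylum and a larger amount of all the others cannot be told apart.

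The order of the 3 phyla was nearly fixed. Desulfobacterota had the largest share of the 3 in 12 of 12 group columns, and ranked between place 3 and place 7 among all named phyla. Deferribacterota came next in 11 of 12, with ranks from 5 to 18. The exception was the male HfiD column at 4 weeks, where Campylobacterota (0.279%) lay above Deferribacterota (0.247%). Together the 3 phyla made up between 0.655% and 7.33% of male reads and between 0.730% and 7.59% of female reads. The lowest sum of each sex was the HfiD column at 0 weeks and the highest was the HfiD column at 4 weeks.

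Desulfobacterota in males stood at 2.24%, 6.03% and 6.22% of reads after CD at 0, 4 and 8 weeks of HFD. After HfiD they stood at 0.562%, 6.81% and 1.44%. The 3 highest male columns, 6.03% to 6.81%, were both feeds at 4 weeks and CD at 8 weeks, and HfiD at 8 weeks lay below the CD column that had received no HFD. In females the shares were 4.26%, 2.82% and 3.83% after CD and 0.697%, 6.22% and 5.80% after HfiD. The lowest female column was again HfiD at 0 weeks, and the other 5 columns lay within 2.82% to 6.22%. Female columns after CD differed little over time, while those after HfiD differed widely between 0 weeks and later. The highest column exceeded the lowest by 12.1-fold in males and by 8.93-fold in females.

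Deferribacterota made up 0.0739%, 0.351% and 0.275% of the reads of the male CD columns at 0, 4 and 8 weeks. The male HfiD columns held 0.0491%, 0.247% and 0.0488%. The 2 highest of these 6 values came from CD at 4 and 8 weeks, and the HfiD columns at 0 and 8 weeks were almost equal. The female CD columns held 0.165%, 0.0384% and 0.201% in the same order of times, and the female HfiD columns held 0.0331%, 1.37% and 0.324%. The female HfiD column at 4 weeks was the highest of all 12, and the female HfiD column at 0 weeks the lowest. The range over the 6 columns was 7.19-fold in males and 41.4-fold in females.

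Campylobacterota exceeded 0.0003% in the male table only. The male CD columns held 0.0260%, 0.214% and 0.0134% at 0, 4 and 8 weeks, and the male HfiD columns held 0.0440%, 0.279% and 0.0141%. Both 4 week columns lay above the other 4, whatever the prior feed, and the 2 columns of each time were close to each other. The highest exceeded the lowest by 20.8-fold. In females they were listed at 0.0003% in the HfiD column at 0 weeks and at 0 in the other 5 columns. The tables carry steps of 0.0001%, so a value listed at 0 may lie below that step. The smallest value above 0 in the female table was 0.0003%, so the lowest share visible there may lie above the step.

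**Figure D1:**
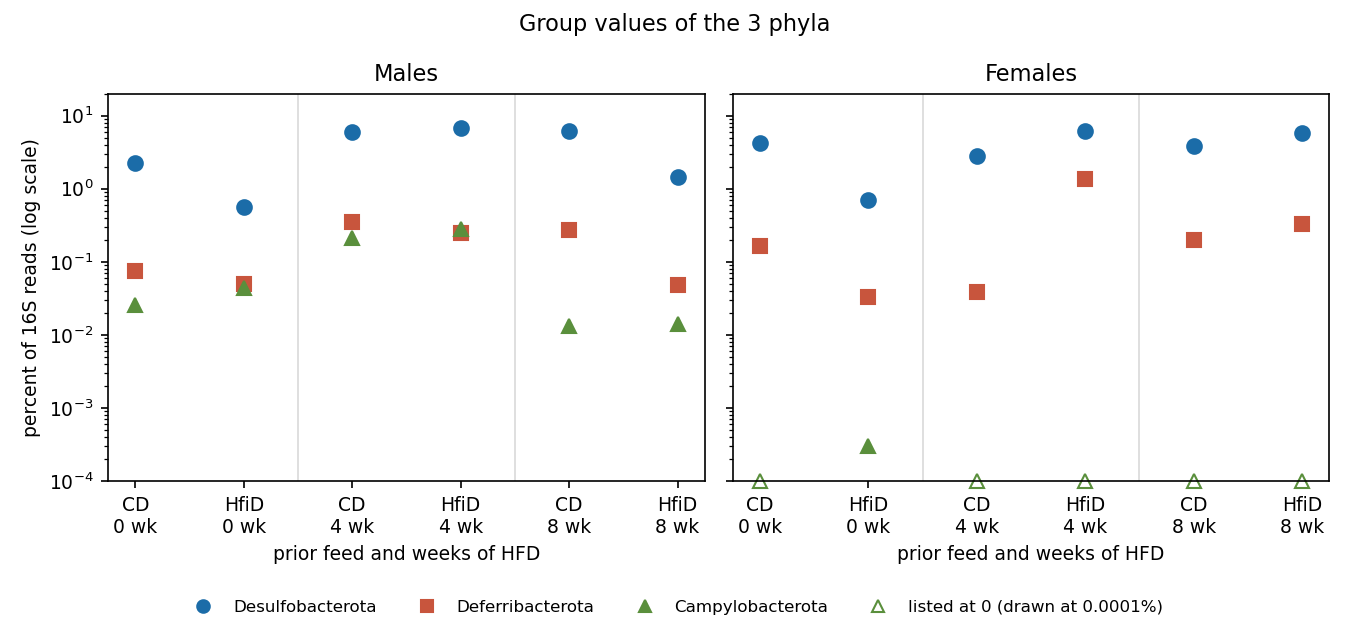
Share of 16S reads on a log axis for Desulfobacterota, Deferribacterota and Campylobacterota, by prior feed and weeks of HFD; each point is 1 group value, with no error, and open triangles mark values listed at 0, drawn at 0.0001%. In both sexes Desulfobacterota are lowest in the HfiD column at 0 weeks (0.562% in males and 0.697% in females). Campylobacterota are seen mainly in the male table.

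Among the phyla that reached 0.01% in every column of a table, those of the 3 that did so (all in males, and Desulfobacterota and Deferribacterota in females) ranged more widely than Firmicutes and Bacteroidota. Of 17 such phyla in males, Campylobacterota had the second widest range between lowest and highest column, Desulfobacterota the third at 12.1-fold and Deferribacterota the fifth, with Verrucomicrobiota first at 38.9-fold. Of 7 such phyla in females, Deferribacterota were in place 2 and Desulfobacterota in place 4, after Patescibacteria (46.1-fold) and Proteobacteria (29.4-fold). Left out of the 7 were Verrucomicrobiota, which ran from 0 to 11.8% in females, and Cyanobacteria, from 0.001% to 0.114%. Left out of the 17 were male phyla such as Caldatribacteriota. On the scale log2(percent + 0.01), they differed by 3.95 between 4 and 8 weeks after HfiD, where Campylobacterota differed by -3.58. The places therefore hold only among the phyla kept. Firmicutes ranged over 1.65-fold in males and 2.64-fold in females.

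The phyla were next compared between prior feeds, on the scale log2(percent + 0.01), counting a phylum as apart where the values differed by at least 2-fold on that scale. Only phyla with a mean of at least 0.01% over the columns compared were counted. At 0 weeks, Desulfobacterota were lower after HfiD in both sexes, with a log2 difference of -1.98 in males (0.562% against 2.24%) and -2.59 in females (0.697% against 4.26%). Deferribacterota were also lower after HfiD, with a log2 difference of -0.51 in males, short of 2-fold, and -2.02 in females. Male Campylobacterota differed by 0.58 in the other direction. In males 1 of the 3 was at least 2-fold apart, where 14.3% of the 28 phyla compared were, 3 higher and 1 lower. In females both phyla that passed the filter were, where 58.3% of 12 were, 1 higher and 6 lower. The median log2 difference over those 12 was -0.91, so lower after HfiD was the usual direction there. With a pseudocount of 0.1% the female Deferribacterota difference was -0.99, short of 2-fold. The female share of phyla apart was so high that 2 of 2 does not set these phyla off from the rest. For females, feed directions rest on column codes: C was taken for CD, and T for HfiD by elimination.

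At 4 weeks the male columns were close for all 3 phyla. Their log2 differences, HfiD minus CD, were 0.17 for Desulfobacterota, -0.49 for Deferribacterota and 0.36 for Campylobacterota. None was 2-fold apart, against 11.1% of 27 male phyla. In females both remaining phyla were at least 2-fold higher after HfiD, with log2 differences of 1.14 for Desulfobacterota (6.22% against 2.82%) and 4.83 for Deferribacterota (1.37% against 0.0384%). The difference in Deferribacterota was the widest of the 7 female phyla compared, of which 57.1% were apart, 3 higher and 1 lower. On a centred log ratio, which subtracts the mean log value of the phyla compared from each column, the Desulfobacterota difference was 0.32.

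At 8 weeks male Deferribacterota and Desulfobacterota had the 2 widest differences of the 35 phyla compared, both lower after HfiD. Deferribacterota stood at 0.0488% against 0.275%, a log2 difference of -2.28, and Desulfobacterota at 1.44% against 6.22%, a log2 difference of -2.10. Male Campylobacterota, at 0.0141% and 0.0134%, had the narrowest of the 35, and its sign turned when shares were set against Firmicutes plus Bacteroidota. Of the male phyla 20% were apart, 4 higher and 3 lower, and of the 10 female phyla 30%, 0 higher and 3 lower. In females the log2 differences were 0.60 for Desulfobacterota and 0.66 for Deferribacterota, both short of 2-fold and both toward HfiD. On a centred log ratio the same 2 differences were 2.35 and 2.42, a scale on which phyla listed at 0 in 1 of the 2 columns shift all the others.

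**Figure D2:**
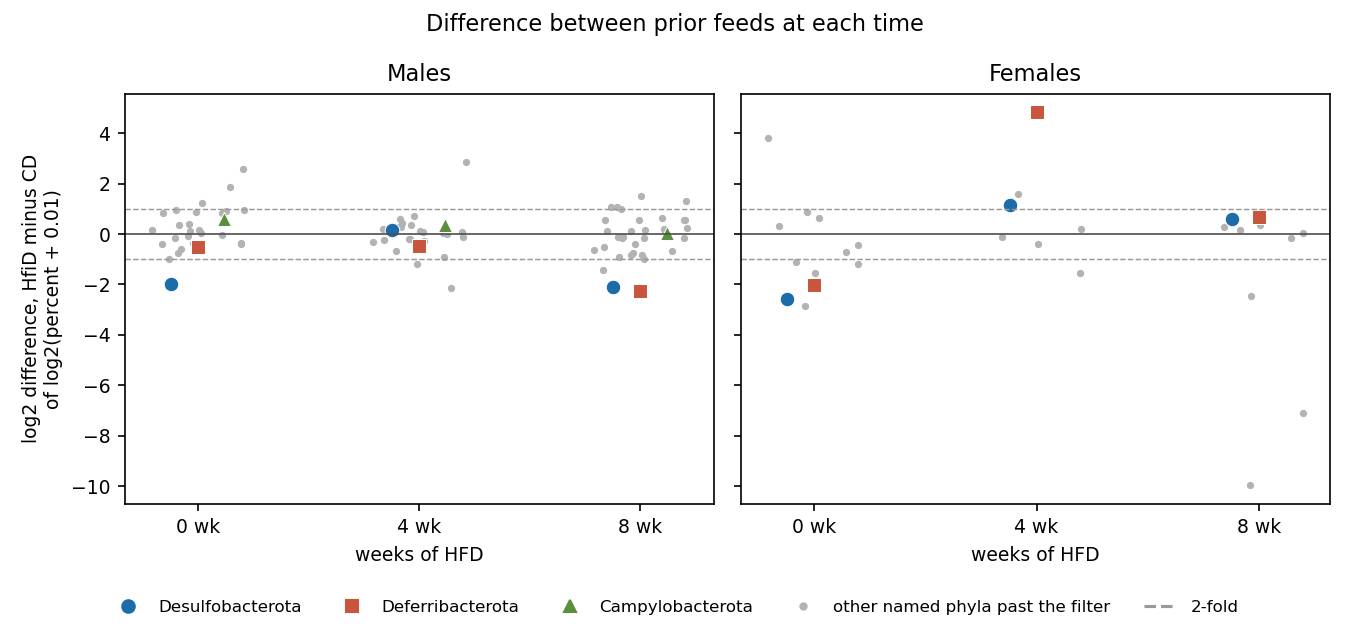
Log2 difference between prior feeds, HfiD minus CD, of log2(percent + 0.01) at 0, 4 and 8 weeks of HFD; grey points are the other named phyla past the filter, spread sideways for view, and dashed lines mark 2-fold. Desulfobacterota lie below 0 in both sexes at 0 weeks (-1.98 in males and -2.59 in females), and at 8 weeks below 0 in males (-2.10) and above in females (0.60).

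The difference between feeds in Desulfobacterota moved upward from 0 to 4 weeks in both sexes, by 2.15 log2 units in males and 3.73 in females. From 4 to 8 weeks it moved by -2.27 in males, close to its value at 0 weeks, and by -0.54 in females. On a centred log ratio the female difference was 0.32 at 4 weeks and 2.35 at 8 weeks. Those 2 values are centred on different sets, of 7 and of 10 phyla, so they give no movement. For Deferribacterota the difference between feeds moved by 0.01 and then -1.78 in males, and by 6.85 and then -4.17 in females. For male Campylobacterota it moved by -0.22 and -0.32. On a centred log ratio it stood at 0.36, 0.37 and 0.14, again over different sets, of 28, 27 and 35 phyla. The 3 phyla therefore did not share 1 course: from 4 to 8 weeks the male difference in Campylobacterota narrowed while that in Deferribacterota widened. Whether any of these movements exceeds the spread between animals was not tested.

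The same columns were then compared over the duration of HFD within each prior feed. Where HFD was given it followed the prior feed, so its length cannot be told apart from age or from the time since CD or HfiD ended, and the columns at 0 weeks serve both later times. In males after CD, all 3 phyla were at least 2-fold higher at 4 weeks than at 0. The log2 differences were 1.42 for Desulfobacterota, 2.11 for Deferribacterota and 2.64 for Campylobacterota. Of the 30 phyla compared, 50% were apart, 10 higher and 5 lower. In males after HfiD the differences were 3.57, 2.12 and 2.42, again 3 of 3 higher. Of 29 phyla there, 51.7% were apart, 6 higher and 9 lower. The difference in Desulfobacterota after HfiD was in place 2 of those 29 by size. In females after HfiD the differences were 3.14 for Desulfobacterota and 5.00 for Deferribacterota. Of 11 phyla there, 90.9% were apart, 4 higher and 6 lower, so a 2-fold difference in either direction was the rule. In females after CD the differences were -0.59 and -1.85, where 66.7% of 12 were apart and the median over all 12 was -2.10. Both signs turned on a centred log ratio, to 1.41 and 0.15. They were kept as a ratio to Firmicutes plus Bacteroidota, at -0.63 and -1.92. Named phyla above 0 in females numbered 23 at 0 weeks and 8 at 4 weeks after HfiD, and 26 and 13 after CD. Whether read depth differed between these columns is unknown.

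At 8 weeks against 0 weeks the 3 phyla parted. Male Desulfobacterota were at least 2-fold higher after both feeds, with log2 differences of 1.47 after CD and 1.35 after HfiD, the first being 0.92 on a centred log ratio. Male Deferribacterota were 1.77 higher after CD and differed by -0.01 after HfiD. Male Campylobacterota were lower than before HFD, by -0.62 after CD and -1.16 after HfiD. The latter was -0.34 with a pseudocount of 0.1%, and the former was -1.17 on a centred log ratio. The background was 54.5% of 33 male phyla apart after CD, 13 higher and 5 lower. After HfiD it was 30% of 30, 6 higher and 3 lower. In females after HfiD, Desulfobacterota and Deferribacterota differed by 3.04 and 2.95, where 90.9% of 11 were apart, 4 higher and 6 lower. After CD they differed by -0.15 and 0.27, where 69.2% of 13 were apart.

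Between 4 and 8 weeks, 3 of 3 phyla were lower in males after HfiD. Desulfobacterota went from 6.81% to 1.44%, a 4.71-fold difference, Deferribacterota from 0.247% to 0.0488%, 5.05-fold, and Campylobacterota from 0.279% to 0.0141%, 19.8-fold. The log2 differences were -2.23, -2.13 and -3.58, and with a pseudocount of 0.1% they were -2.16, -1.22 and -1.73. Of the 31 phyla compared there, 64.5% were apart, 11 higher and 9 lower. In males after CD only Campylobacterota of the 3 were apart, 16.0-fold lower at 8 weeks (0.0134% against 0.214%), with 68.6% of 35 phyla apart. This log2 difference was -3.26, and -1.47 with a pseudocount of 0.1%. Desulfobacterota stood at 6.03% and 6.22% in those columns, the narrowest of the 35 differences, and its sign turned on a centred log ratio (-0.31). In males, Campylobacterota were thus highest at 4 weeks after either feed, while the share of Desulfobacterota at 8 weeks was near that at 4 weeks after CD and below it after HfiD. In females after HfiD, Deferribacterota were 4.23-fold lower at 8 weeks than at 4 weeks, the widest of 8 differences, of which 37.5% were apart, and Desulfobacterota stood at 6.22% and 5.80%. In females after CD, Deferribacterota were 5.23-fold higher at 8 weeks (0.201% against 0.0384%) and Desulfobacterota differed by 0.44, with 55.6% of 9 phyla apart. Both female CD signs turned on a centred log ratio, to -0.11 and -1.79. The signs were kept as a ratio to Firmicutes plus Bacteroidota, at 2.26 and 0.55. The 9 phyla centred on included Verrucomicrobiota and Euryarchaeota, with log2 differences of 9.85 and 7.11.

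**Figure D3:**
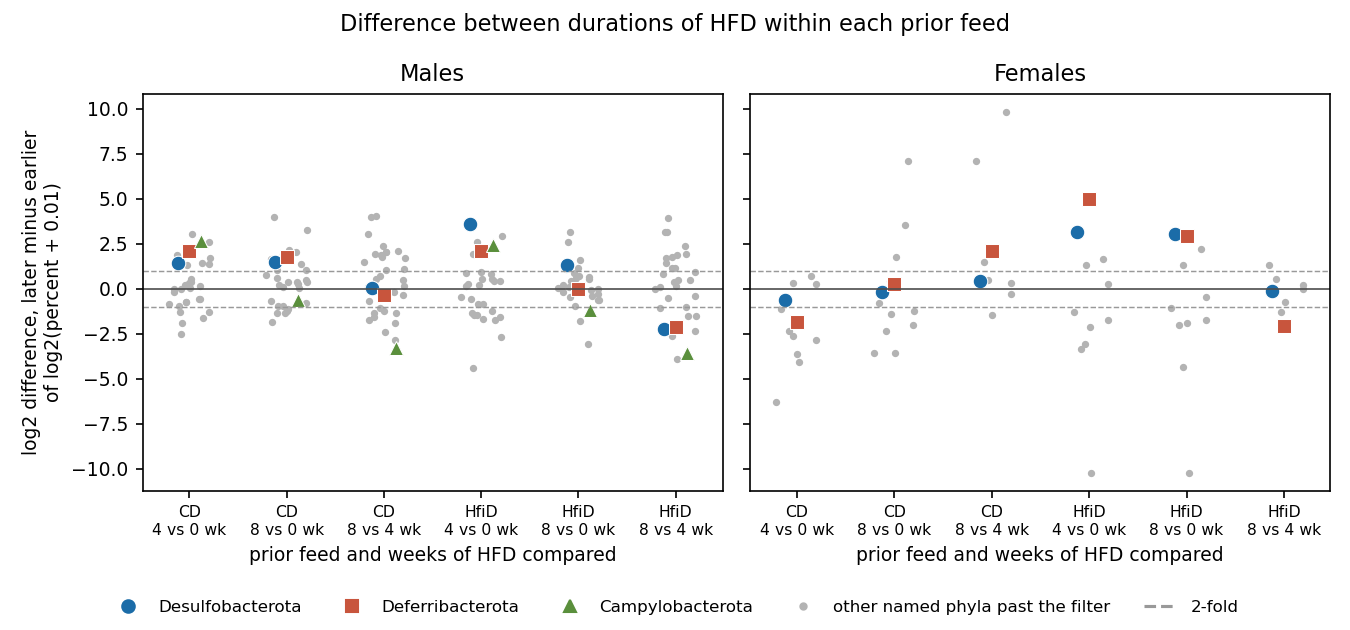
Log2 difference between durations of HFD, later minus earlier, of log2(percent + 0.01), within each prior feed; grey points are the other named phyla past the filter, spread sideways for view, and dashed lines mark 2-fold. In males the 3 phyla lie above 1 at 4 against 0 weeks after either feed, and in females after HfiD Desulfobacterota and Deferribacterota lie at 3.14 and 5.00.

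The ratio of Desulfobacterota to Deferribacterota does not depend on the other phyla. In males it was 30.3, 17.2 and 22.6 after CD, and 11.4, 27.6 and 29.6 after HfiD, at 0, 4 and 8 weeks. In females it was 25.8, 73.6 and 19.1 after CD, and 21.1, 4.54 and 17.9 after HfiD. The 4 week columns of females held both the highest and the lowest ratio of the 12, and the remaining 10 lay between 11.4 and 30.3. The ratio of Deferribacterota to Campylobacterota in males was 2.84, 1.64 and 20.5 after CD and 1.12, 0.885 and 3.46 after HfiD, highest at 8 weeks after each feed.

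Firmicutes and Bacteroidota, the dominant fermenters, took 67.2% to 86.7% of male reads and 78.8% to 88.5% of female reads. Of what remained, Desulfobacterota made up 16.8%, 23.2% and 25.5% in males after CD and 2.47%, 20.7% and 7.14% after HfiD. In females they made up 26.6%, 20.9% and 19.4% after CD and 3.28%, 39.9% and 50.3% after HfiD. The female HfiD columns thus held both the smallest and the largest female part. The Desulfobacterota part there was larger at 8 than at 4 weeks. Their share of all reads went from 6.22% to 5.80%, and that of Firmicutes plus Bacteroidota from 84.4% to 88.5%. In the female HfiD columns the share of Verrucomicrobiota, to which Akkermansia, a consumer of mucin, belongs, was 11.8% before HFD, and both later columns list 0. Proteobacteria held 1.99%, 0.226% and 0.0872% of reads there. Their part in the shares of Desulfobacterota was not tested.

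**Figure D4:**
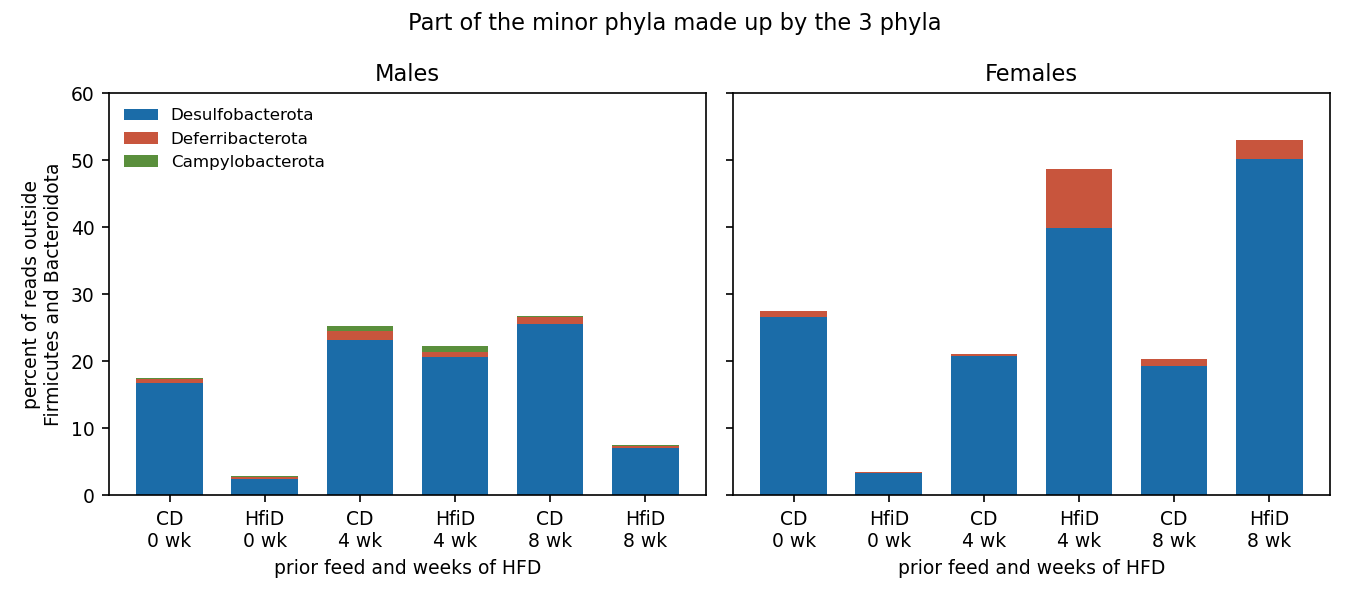
Stacked bars of the share of reads outside Firmicutes and Bacteroidota that belonged to Desulfobacterota, Deferribacterota and Campylobacterota, by prior feed and weeks of HFD, 1 group value per bar and no error. The female HfiD bars hold 3.28% of Desulfobacterota at 0 weeks and 39.9% and 50.3% at 4 and 8 weeks.

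Within each table, the ranks of phyla over the 6 columns were compared to find those closest to each of the 3, among phyla with a mean of at least 0.1%. Columns of 1 table are shares that sum to a whole, and 6 columns are few, so the correlations only describe these columns. By rank, closest to Desulfobacterota were Deferribacterota in both sexes, with a Spearman rho of 0.71 in males and 0.94 in females over 6 columns. The next were Actinobacteriota in males (0.66), and Firmicutes in females (0.31). By Pearson correlation of log2 values the female order turned, with 0.83 for Firmicutes and 0.79 for Deferribacterota. For male Deferribacterota, Desulfobacterota, Firmicutes and Actinobacteriota were tied at 0.71. For female Deferribacterota the closest were Desulfobacterota, at the 0.94 above, and then Firmicutes at 0.37. Male Campylobacterota lay closest to Verrucomicrobiota (0.94) and then to Actinobacteriota (0.43), with 0.26 to each of Desulfobacterota and Deferribacterota. When phyla down to a mean of 0.01% were admitted, Latescibacterota lay closest to both Desulfobacterota (0.89) and Deferribacterota (0.83) in males, and Myxococcota at 0.94 beside Verrucomicrobiota to Campylobacterota. Both belong to a list of soil and water phyla. The 11 of them present in the male table and the 9 in the female table summed to 0.930% to 1.64% of male reads and 0 to 0.251% of female reads. At 0 weeks the female sums were 0.251% after CD and 0.0807% after HfiD, against at most 0.0103% later. Whether their source bears on the correlations was not tested.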

How the data were processed

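Values are fractions of 16S reads per phylum, deposited by the authors as 1 column per group in a table for each sex, with 6 decimals, and were multiplied by 100. fastp 0.23.1 and R 4.0.3 appear in the submitters' processing notes with no role. For denoising, taxonomy database and the way libraries were combined, the method is not given in the sources used here. Male columns name the feeds (HfiD as fiD at 4 and 8 weeks). In all, 115 library columns were not used, since their codes match no single label, and the tests planned for libraries were not run. The 3 phyla, the 10 gut phyla and the 12 soil or water phyla were chosen with earlier results of these data known. Differences are of log2(percent + 0.01), for phyla with a mean of at least 0.01%. Phyla named by plan were the 3, other listed gut phyla where needed, and the 2 closest per table by Spearman rank. Latescibacterota, Myxococcota, Euryarchaeota and Caldatribacteriota were named after their values were seen. Folds are ratios of percentages. Alternatives were pseudocounts of 0.001% and 0.1%, a centred log ratio, a ratio to Firmicutes plus Bacteroidota, other filters and Pearson correlation. The code was tested on a simulated male profile of 31 phyla, with 6 raised or lowered 8-fold. No noise was added and shares were not rescaled to a whole. At 2-fold, 6 of 6 were returned, which says nothing on the spread between animals. Python 3.11.15, pandas 2.3.3, NumPy 2.4.6, SciPy 1.17.1 and matplotlib 3.10.9 were used.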

Additional observations from a re-analysis of the deposited data

Results flagged for a closer look

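Some differences ran in opposite directions in 2 groups under the same contrast. Each rests on 1 value per group, and the difference between the groups was not tested. All values are log2 differences. Between feeds (HfiD minus CD), Desulfobacterota at 8 weeks were at -2.10 in males and 0.60 in females. Deferribacterota were at -0.49 in males and 4.83 in females at 4 weeks, and at -2.28 and 0.66 at 8 weeks. The female signs depend on the reading of the column codes, and the sexes come from separate tables. On a centred log ratio these 3 pairs were still opposite. Male and female values there are centred on different sets, of 27 and 7 phyla at 4 weeks and of 35 and 10 at 8 weeks. They are therefore no check on a difference between the sexes.

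Over the duration of HFD, the opposite directions were between the prior feeds. Male Desulfobacterota at 8 against 4 weeks were at 0.044 after CD and -2.23 after HfiD. Female Desulfobacterota at 4 against 0 weeks were at -0.59 after CD and 3.14 after HfiD, at 8 against 0 weeks at -0.15 and 3.04, and at 8 against 4 weeks at 0.44 and -0.10. Male Deferribacterota at 8 against 0 weeks were at 1.77 after CD and -0.0073 after HfiD. Female Deferribacterota were at -1.85 after CD and 5.00 after HfiD at 4 against 0 weeks, and at 2.12 and -2.05 at 8 against 4 weeks. On a centred log ratio some of these pairs ran in the same direction: male Desulfobacterota at 8 against 4 weeks (-0.31 and -2.37), female Desulfobacterota at 4 against 0 weeks (1.41 and 4.08), and female Deferribacterota at 4 against 0 weeks (0.15 and 5.94) and at 8 against 4 weeks (-0.11 and -1.79). Here too the values of a pair are centred on different sets of phyla.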

How the results depend on the processing

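Of 45 log2 differences of the 3 phyla, 45 kept their direction and their side of 2-fold with a pseudocount of 0.001%, 42 with 0.1%, 44 as a ratio to Firmicutes plus Bacteroidota and 34 on a centred log ratio. With 0.1%, values fell short of 2-fold for Campylobacterota in males after HfiD at 8 against 0 weeks (-0.34) and for female Deferribacterota between feeds at 0 weeks (-0.99) and after CD at 4 against 0 weeks (-0.94). As the ratio, male Campylobacterota between feeds at 8 weeks turned to -0.0023. On a centred log ratio, Desulfobacterota turned in males after CD at 8 against 4 weeks (-0.31), and in females after CD at 4 against 0 (1.41) and 8 against 4 weeks (-1.79) and after HfiD at 8 against 4 weeks (0.15). Deferribacterota turned in females after CD at 4 against 0 (0.15) and 8 against 4 weeks (-0.11). Desulfobacterota fell short of 2-fold in males after CD at 8 against 0 weeks (0.92) and in females between feeds at 4 weeks (0.32). Past 2-fold were male Campylobacterota after CD at 8 against 0 weeks (-1.17) and, between feeds in females at 8 weeks, Desulfobacterota (2.35) and Deferribacterota (2.42). On a centred log ratio, phyla at or near 0 in 1 of the 2 columns shift all the others. What each change rested on was not tested.

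The number of phyla apart moved by over 1.5 times with a filter at 0.1% in 13 of 18 comparisons. Between feeds it was 1 in place of 3 in males at 4 weeks, 4 in place of 7 at 8 weeks, and 2 in place of 7 in females at 0 weeks. In males it was 7 in place of 15 after either feed at 4 against 0 weeks. At 8 against 0 weeks it was 10 in place of 18 after CD and 3 in place of 9 after HfiD, and at 8 against 4 weeks 6 in place of 24 and 8 in place of 20. In females after CD it was 4 in place of 8 at 4 against 0 weeks and 5 in place of 9 at 8 against 0, and after HfiD 6 in place of 10 at both. With no filter it was 14 in place of 9 in males after HfiD at 8 against 0 weeks; fewer or more phyla enter by construction.

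By Pearson correlation, Firmicutes in place of Deferribacterota lay closest to female Desulfobacterota, and Actinobacteriota (0.45) left the 2 closest to male Desulfobacterota. With phyla down to 0.01% admitted, those that left in males were Deferribacterota (0.71) and Actinobacteriota (0.66) for Desulfobacterota, Firmicutes (0.71, tied with Desulfobacterota and placed after them by Pearson correlation) for Deferribacterota and Actinobacteriota (0.43) for Campylobacterota. No library was left out, since none was used. Prevalence and leave-one-out runs were not made for the same reason. Read depth is unknown, so values near 0.0001% carry no stated precision.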
